A study of Mus musculus with 6 samples.

Results

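Adgrg6 and the genes of the Lgi-Adam system were followed in RNA-seq counts from samples labelled as mouse sciatic nerve. The 8 genes, taken by name from the 54532 genes of the count table, were the receptor gene Adgrg6, the ligand genes Lgi1, Lgi2, Lgi3 and Lgi4, and the receptor genes Adam11, Adam22 and Adam23. All 8 passed the filter on low counts. The libraries came from 3 control (WT) and 3 Dok6 mutant (Dok6 KO) mice at postnatal day 3, one library per mouse, and the study compared them to find pathways downstream of Dok6, an adaptor protein of neurotrophin receptor signaling. The mutants lack exon 3 of Dok6 throughout the body, after deletion of a floxed allele by EIIA-Cre, which acts in the early embryo. The strains were kept on a C57BL/6 background, and the labels give neither the sex of the mice nor which of them shared a litter. The study describes the controls of this comparison as littermates of the mutants, without saying which mice shared a litter. The study named Adgrg6 and Lgi4 from these same libraries, so their values are not independent evidence of their direction. The study also reports quantitative PCR for a subset of its changed genes, with results like those of its RNA-seq. Its primer list includes Adgrg6 (as Gpr126) and Lgi4.

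In a peripheral nerve, immature Schwann cells first sort axons into a relation of one cell to one axon and then start to myelinate, and both Adgrg6 and Lgi4 are known for their part in this step. Adgrg6 (Gpr126) is an adhesion G protein-coupled receptor of Schwann cells that raises cAMP and thereby allows the transcription factors Pou3f1 and Egr2 to start the myelin program. Lgi4 is a protein secreted by Schwann cells that acts through Adam22 on the axon, and its loss gives the claw paw mouse. The related ligands Lgi1, Lgi2 and Lgi3 are best known from neurons and central glia, where Lgi1 joins Adam22 and Adam23 across the synapse and holds ion channels and receptors in place. Adam11, Adam22 and Adam23 belong to the ADAM family of metalloproteases but have no protease activity and act as receptors.

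The 4 ligands are paralogs, and so are the 3 receptors, so the coding sequences were compared to see how far reads of one gene could be taken for another. The most alike stretch of 60 bases among the Lgi genes, read from the GENCODE M21 transcripts of GRCm38, spans the junction of coding exons 3 and 4 in each of them. It is printed 5′ to 3′ on the coding strand, with capitals for bases that differ from Lgi4, for Lgi2, Lgi3 and Lgi4. Including the intron between both exons, it lies at chr5:52560214-52562164 (minus strand) for Lgi2, chr14:70532808-70533197 (plus) for Lgi3 and chr7:31061111-31063124 (plus) for Lgi4.
Lgi2: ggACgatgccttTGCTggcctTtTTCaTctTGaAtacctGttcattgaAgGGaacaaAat
Lgi3: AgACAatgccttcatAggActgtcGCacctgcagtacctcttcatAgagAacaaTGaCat
Lgi4: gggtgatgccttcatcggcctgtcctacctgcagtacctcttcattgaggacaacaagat

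In this stretch Lgi3 differs from Lgi4 at 13 bases and Lgi2 at 19. Over the whole coding sequence, Lgi4 shared between 47.3% (Lgi2) and 55.6% (Lgi3) of aligned bases with the other ligands, and the longest run found in both Lgi4 and another ligand was 21 bases, shared with Lgi3. The Adam stretch, which spans coding exons 10 and 11, is shown in the same way, with capitals for bases that differ from Adam22. It lies at chr11:102772650-102772860 (plus strand) for Adam11, chr5:8145694-8146488 (minus) for Adam22 and chr1:63543157-63545456 (plus) for Adam23.
Adam11: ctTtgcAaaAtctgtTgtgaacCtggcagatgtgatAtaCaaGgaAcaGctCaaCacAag
Adam22: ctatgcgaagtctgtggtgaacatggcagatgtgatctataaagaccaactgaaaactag
Adam23: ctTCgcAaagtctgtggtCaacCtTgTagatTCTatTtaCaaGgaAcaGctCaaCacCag

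Of these 60 bases, 40 are shared by all 3 receptor genes, and the longest exact run shared by any pair of receptors was 20 bases (Adam11 and Adam23). No member's transcript aligned to that of another member over 200 bases or more with 95% identity. Other annotated genes did overlap members. Lgi4 shares 2059 exonic bases, 44.9% of its merged exons, with Fxyd3, a gene on the opposite strand, and Fxyd3 held 0, 0 and 1 counts in the control libraries and 18, 10 and 1 in mutant mice 1, 2 and 3. Adgrg6 shares 441 exonic bases with the antisense gene Gm46212, which held at most 1 count in a library, and Lgi1 shares 532 with the antisense gene Gm42723 and matches the transcript of Gm3888 over 1240 bases. Whether strand was used in counting is not given in the sources used here, so reads from these shared bases cannot be assigned with certainty.

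On GRCm38, Adgrg6 (ENSMUSG00000039116) lies on the minus strand of chromosome 10 from 14402583 to 14545659, with 25 exons in its coding transcript. Lgi4 (ENSMUSG00000036560) lies on the plus strand of chromosome 7 from 31059342 to 31070935, with 9 exons. Lgi1 is on chromosome 19 from 38264536 to 38312214, Lgi2 on chromosome 5 from 52533517 to 52566462, and Lgi3 on chromosome 14 from 70530685 to 70538324. Adam11 is on chromosome 11 from 102761439 to 102780262, Adam22 on chromosome 5 from 8072352 to 8368160, and Adam23 on chromosome 1 from 63445891 to 63596276. The 8 genes are thus spread over 7 chromosomes, with Lgi2 and Adam22 far apart on the same one.

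The libraries held between 17699904 and 18678170 counts, and values are given as CPM, read counts relative to a library size that was scaled by the TMM method, on which 3 counts, taken as the smallest detectable level, came to between 0.156 and 0.172 CPM. This floor covers counting error only. Dok6 was at 17.8, 11.9 and 17.5 CPM in the control libraries and at 7.26, 5.78 and 7.15 in the mutant libraries, with a log2 fold change of -1.23 and a standard error of 0.20 (adjusted p = 0.0118). Markers of the labelled tissue were low in the controls. A list of 10 defining Schwann cell genes, among them Pmp22, Prx, Egr2, Pou3f1, Scn7a and Erbb3, summed to 86.8, 60.3 and 52.9 CPM in control mice 1, 2 and 3, while 11 central neuron markers, among them Gad1, Slc32a1 and Slc6a5 of inhibitory neurons, summed to between 2173 and 2698 CPM. In the mutant libraries the same central neuron list summed to between 2020 and 2096 CPM and the Schwann cell list to 321, 3699 and 271 CPM. These levels go against the labelled tissue in the controls, and central neuron markers were high in all 6 libraries. In bulk RNA, more cells of a type and more RNA per cell cannot be told apart.

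**Figure D1:**
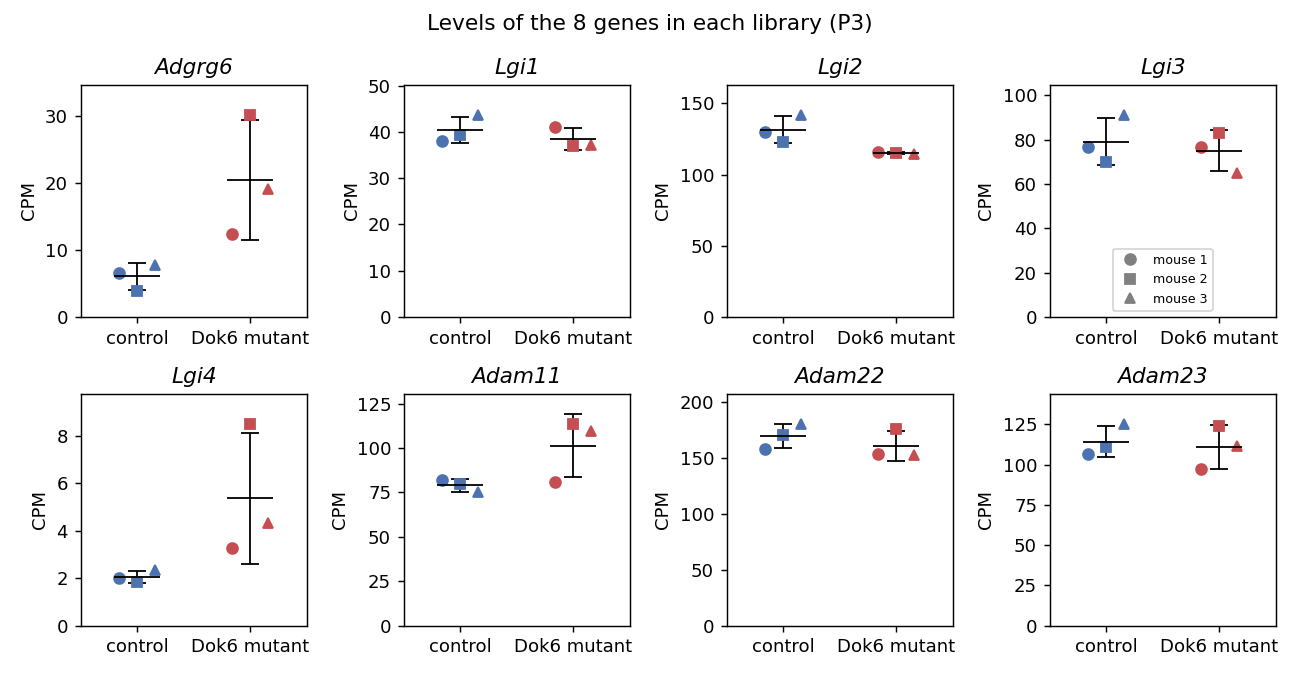
Level of each of the 8 genes in CPM (vertical axes from 0) in the 3 control and 3 Dok6 mutant libraries, with a symbol for each mouse and a bar and whiskers for the mean and SD. For Adgrg6 and Lgi4 all mutant points lie above all control points, for Lgi2 all lie below, and for the other 5 genes the genotypes overlap.

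Adgrg6, the receptor that opens the cAMP arm of Schwann cell myelination, was higher in the Dok6 mutant libraries. It was measured at 6.54, 3.84 and 7.72 CPM in control mice 1, 2 and 3 and at 12.3, 30.1 and 19.0 CPM in mutant mice 1, 2 and 3, from 67 to 135 and from 238 to 552 counts. All mutant values were above all control values, and mutant mouse 2 was the highest of the 6. The means were 6.03 ± 1.99 CPM (SD, n = 3 mice) and 20.5 ± 8.97 CPM (SD, n = 3 mice), a 3.39-fold increase with a log2 fold change of 1.76 (standard error 0.35, 95% interval 0.96 to 2.56) and an adjusted p of 0.0193 in edgeR's quasi-likelihood test over 17099 genes. Of all genes tested, 1.64% had a larger log2 fold change than Adgrg6. The increase was past a log2 fold change of 1 but not past the threshold of 2 used in the study's methods. Without control mouse 2, which had the lowest value, the log2 fold change was 1.52 and the adjusted p 0.0883, and with each of the other mice left out the adjusted p was at most 0.0493. The log2 fold change was smallest without mutant mouse 2 (1.38, adjusted p = 0.0484).

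Lgi4, the Schwann cell ligand, was also higher in the mutants. Control mice 1, 2 and 3 had 2.01, 1.83 and 2.34 CPM and mutant mice 1, 2 and 3 had 3.27, 8.51 and 4.35 CPM. The groups did not overlap, and again mutant mouse 2 was the highest. Lgi4 had the fewest counts of the 8 genes, from 32 to 41 in the control libraries and 63, 156 and 82 in the mutants, and counting alone gives a coefficient of variation of 17.7% at 32 counts. The means were 2.06 ± 0.259 CPM (SD, n = 3 mice) and 5.37 ± 2.77 CPM (SD, n = 3 mice), a 2.60-fold increase with a log2 fold change of 1.38 (standard error 0.36, 95% interval 0.55 to 2.21, adjusted p = 0.0399). Without mutant mouse 2 the log2 fold change was 0.88 (adjusted p = 0.106), and without control mouse 1, 2 or 3 the adjusted p was 0.0964, 0.146 or 0.0732. The call thus held in 2 of the 6 fits that left out a mouse, those without mutant mouse 1 and without mutant mouse 3. With all mice, limma voom did not call it (adjusted p = 0.0719).

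The 2 called genes among 8 stand beside 8.62% of all 17099 genes tested that were called higher and 14.6% called in either direction. Both also passed with a log2 fold change above 1, as did 3.58% of all genes, and neither with one above 2, as did 1.08%. No member was called lower, against 6.01% of all genes. At an unadjusted p under 0.05, 3 members were higher and 1 (Lgi2) was lower, against 18.0% and 15.5% of all genes. DESeq2 called 2 members higher and limma voom 1 (Adgrg6), and neither called a member lower. Members whose genotypes did not overlap numbered 3 of 8 (Adgrg6, Lgi4 and Lgi2), against a share of 38.2% of all genes tested, so that lack of overlap was about as frequent as in the whole table. In the 2 genes that were higher, all mutants lay above all controls, as in 19.6% of all genes. The median log2 fold change of the 8 genes was -0.06, against 0.01 for all genes.

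**Figure D2:**
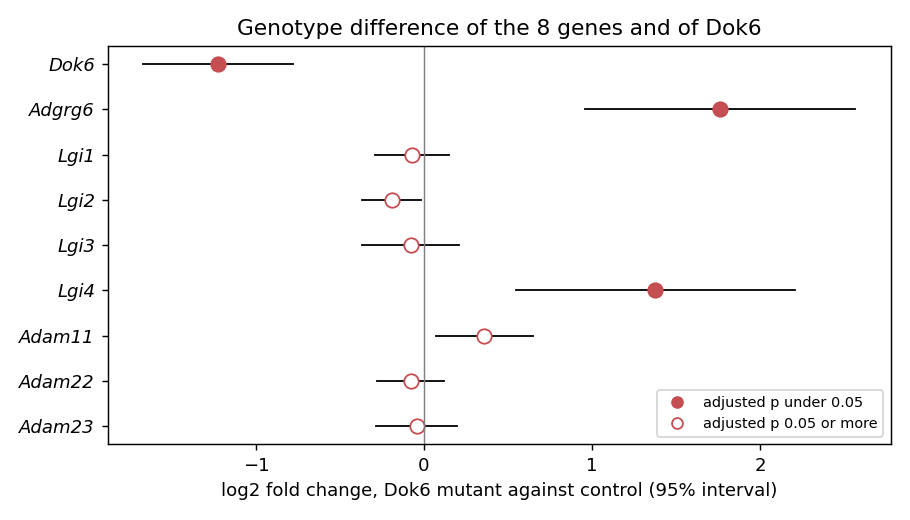
Log2 fold change of Dok6 mutant against control for Dok6 and the 8 genes (points), with 95% intervals from edgeR's quasi-likelihood fit (lines), filled where the adjusted p is under 0.05. Dok6 lies at -1.23, Adgrg6 at 1.76 and Lgi4 at 1.38, and the other 6 genes lie between -0.19 and 0.36.

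The other ligands gave no call. Lgi2, a secreted family member mutated in a juvenile epilepsy of dogs, was at 130, 123 and 142 CPM in controls and at 115, 115 and 114 CPM in the mutants. Every mutant value was below every control value, but the difference was small, with a log2 fold change of -0.19 (standard error 0.08, 95% interval -0.37 to -0.02, adjusted p = 0.116). The SD of the 3 mutant values was 0.521 CPM, below that of the controls, 9.43 CPM. Lgi3 was at 76.4, 69.9 and 91.0 CPM in the controls and at 76.7, 83.1 and 64.9 CPM in the mutants, with overlapping genotypes and a log2 fold change of -0.08 (95% interval -0.37 to 0.21, adjusted p = 0.695). Lgi1, mutated in an inherited epilepsy of the temporal lobe, was at 38.2, 39.4 and 43.6 CPM in the controls and 41.2, 37.0 and 37.1 CPM in the mutants. Its genotypes overlapped too, and its log2 fold change of -0.07 had a 95% interval from -0.29 to 0.15 (adjusted p = 0.642). The intervals of Lgi1, Lgi2 and Lgi3 lie below the lower bound of the interval of Lgi4, although the difference between the ligands' fold changes was not tested directly.

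Among the receptors, Adam22, the neuronal receptor of both Lgi4 and Lgi1, was at 158, 170 and 180 CPM in controls and at 153, 176 and 152 CPM in the mutants. The genotypes overlapped, with a log2 fold change of -0.08 (standard error 0.09, 95% interval -0.28 to 0.12, adjusted p = 0.557). Adam23 was at 107, 111 and 125 CPM in the controls and at 97.2, 124 and 111 CPM in the mutants, and its log2 fold change of -0.04 had a 95% interval from -0.29 to 0.20 (adjusted p = 0.808). For both genes a log2 difference of more than 0.29 in either direction lies outside the interval. Adam11, known from the terminals of cerebellar basket cells, was at 82.3, 79.5 and 75.3 CPM in the controls and at 80.9, 114 and 110 CPM in mutant mice 1, 2 and 3. Mutant mouse 1 lay within the range of the controls and mutant mice 2 and 3 above it. The log2 fold change of Adam11 was 0.36 (standard error 0.13, 95% interval 0.07 to 0.65), and it missed the threshold with all mice (adjusted p = 0.0881) and passed it without mutant mouse 1 (0.50, adjusted p = 0.0277).

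**Figure D3:**
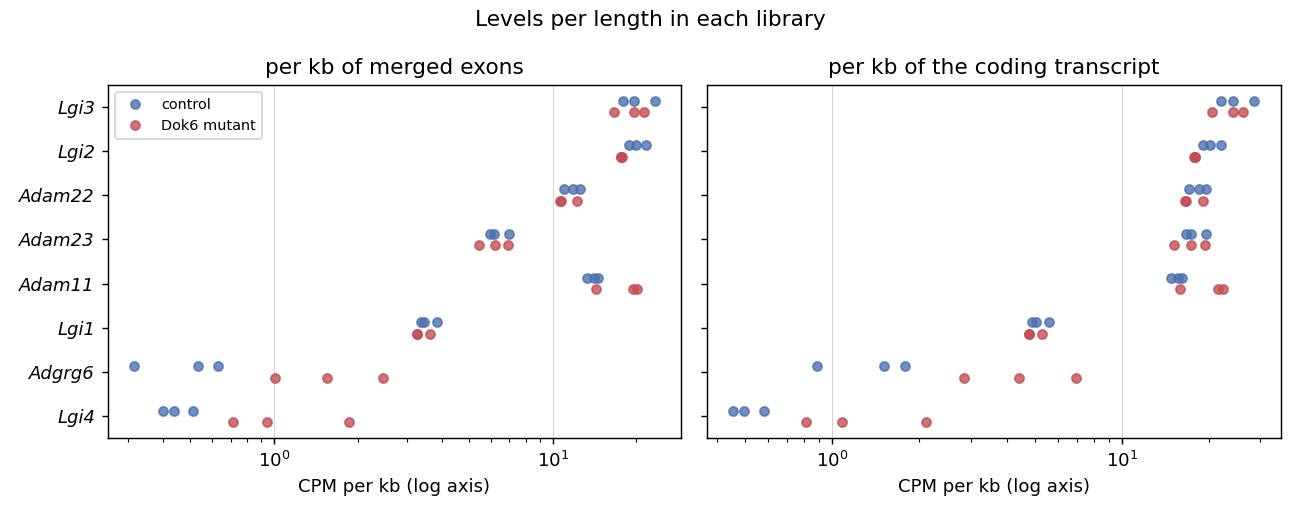
Level of each gene per kb of length in each library (horizontal log axes), over the merged exons of all transcripts (left) and over the transcript with the longest coding sequence (right). On both scales Lgi3 and Lgi2 are the highest in the controls, and Lgi4 and Adgrg6 are the lowest, below Lgi1.

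To compare the genes with each other, levels were divided by length. The deposited gene length equals the merged exon length in GENCODE M21 for each of the 8 genes and for 98.0% of the identifiers matched to it. Per kb of this length, the control levels were 20.3 ± 2.77 CPM per kb for Lgi3, 20.1 ± 1.45 for Lgi2, 13.9 ± 0.619 for Adam11, 11.8 ± 0.768 for Adam22, 6.38 ± 0.546 for Adam23, 3.56 ± 0.253 for Lgi1, 0.493 ± 0.163 for Adgrg6 and 0.450 ± 0.0566 for Lgi4 (SD, n = 3 mice each). Neighbours that did not differ beyond their spread were Lgi3 and Lgi2, and Adgrg6 and Lgi4. The merged length adds up the exons of all annotated transcripts, which bears most on Adam23 (17907 bases against 6426 in its coding transcript) and Adgrg6 (12228 against 4326). Per kb of the coding transcript, Adam22 was at 18.3 ± 1.19, Adam23 at 17.8 ± 1.52 and Adam11 at 15.5 ± 0.688 CPM per kb, so that Adam11 came after the other receptors, with Adam22 and Adam23 within their spread, while Lgi4 at 0.511 ± 0.0643 and Adgrg6 at 1.39 ± 0.46 remained the lowest.

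By RNA level, Lgi4 was the least abundant ligand. On the merged exon scale, it made up 1.01, 0.985 and 1.04% of the summed level of the 4 Lgi genes in the control mice and 1.71, 4.21 and 2.47% in mutant mice 1, 2 and 3, whereas Lgi2 and Lgi3 made up between 40.0 and 48.4% each. For 100 units of Adam22, its receptor, there were 3.81 ± 0.380 units of Lgi4 in the controls and 10.3 ± 4.39 in the mutants (SD, n = 3 mice each), and every mutant ratio was above every control ratio. The ratio of Lgi1 to Adam22 was 30.1 ± 0.764 per 100 in the controls and 30.5 ± 3.69 in the mutants. For such a ratio the smallest two-sided p of an exact permutation test is 0.1 with 3 mice in each group, so no test was made.

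Adgrg6 and Lgi4 followed each other from mouse to mouse. Over the 6 libraries the Pearson correlation of their log2 CPM was 0.96, and that with Adam11 was 0.85 for Adgrg6 and 0.87 for Lgi4. Adam22 and Adam23 had a correlation of 0.83, and Lgi1 and Adam11 one of -0.80. These values describe 6 libraries that fall into 2 genotypes, have similar depth and carry the same tissue label. The levels of Schwann cell and skeletal muscle markers, given below, differed between these libraries, and their part in the correlations was not tested. Out of 11460 genes that reached 5 CPM in each of the libraries, those most like Adgrg6 by this measure were Nqo2, 1700037H04Rik and Itga7, an integrin subunit for laminin, with correlations from 0.991 to 0.996. Those most like Lgi4 were Dgkz, Gsap and AI506816, at 0.989 to 0.991. The genes most like Adam11 were Sostdc1, Cyb5a and Emb, at 0.986 to 0.988. Phactr1, Cabp1 and Mpst were most like Lgi2, Arhgap36 and C1galt1 among those most like Lgi3, and Gm14117, Pcdh20 and Qdpr most like Lgi1. Mios, Xrcc3 and Lias were most like Adam22 and P2rx2, St7l and Plbd2 most like Adam23.

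Markers of several cell types were higher in the mutant libraries beside Adgrg6 and Lgi4. For comparison, 8.62% of all genes tested were called higher. Relative to the control mean, Adgrg6 stood at 2.05, 4.99 and 3.15 in mutant mice 1, 2 and 3 and Lgi4 at 1.58, 4.13 and 2.11. The summed list of 10 defining Schwann cell genes stood at 4.81, 55.5 and 4.06, of which 7 genes rose, with log2 fold changes of 4.33 for Scn7a and 3.30 for the neuregulin receptor gene Erbb3 among them. A broader list of 10 Schwann cell lineage genes, which includes genes shared with central glia, stood at 1.07, 3.24 and 0.917, and 4 of its genes rose. The list of 12 markers of sensory neurons of the dorsal root ganglion (DRG) stood at 1.73, 4.38 and 4.11, and 10 of these rose, among them the sodium channel gene Scn10a, with a log2 fold change of 5.58, and the nociceptor regulator gene Prdm12, with 4.98. Mrgprd, a receptor of nociceptors, was at no more than 0.115 CPM in a control, below the floor, and at 4.88, 17.4 and 8.43 CPM in the mutants. Adam11, at 1.02, 1.44 and 1.39, had its lowest mutant value in the same mouse as this list. Fibroblast markers stood at 3.52, 4.79 and 3.02, with 3 of 7 called higher, and skeletal muscle markers at 28.2, 14.2 and 5.17, with 7 of 8 tested called higher. Among the mutants, Adgrg6, Lgi4, Adam11 and the DRG list were highest in mouse 2, then mouse 3, then mouse 1, whereas the Schwann cell, fibroblast and muscle lists had mouse 3 as the lowest.

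**Figure D4:**
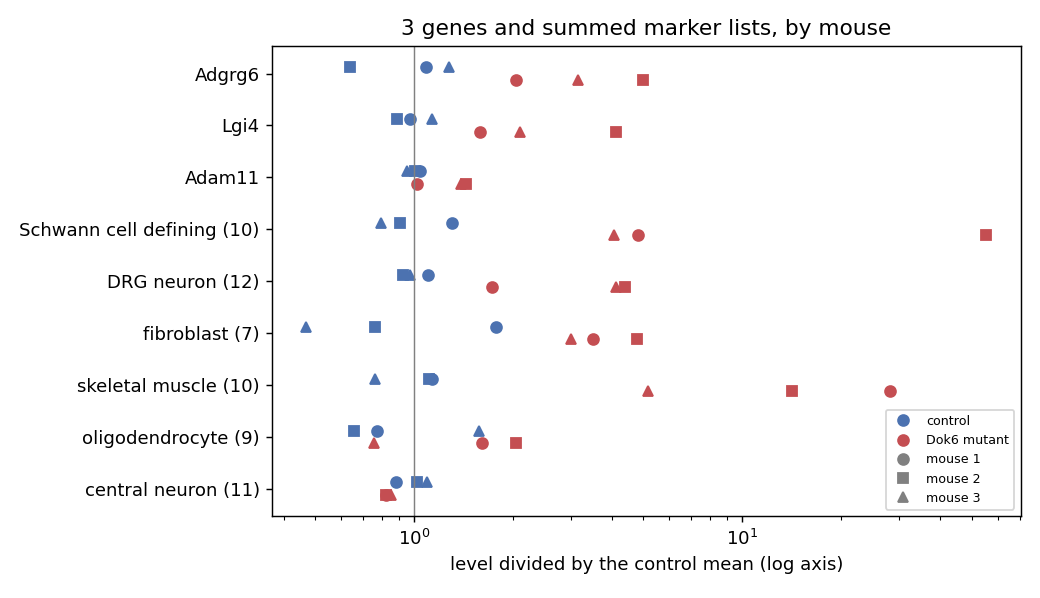
Levels of Adgrg6, Lgi4 and Adam11 and of summed marker lists (number of genes in brackets) in each library, divided by the mean of the 3 control libraries (log axis, line at the control mean), with a symbol for each mouse. Schwann cell, DRG neuron, fibroblast and muscle lists lie above the controls in every mutant library, and the central neuron list lies between 0.82 and 0.85 of the control mean.

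Of 11 central neuron markers, 1 rose (Slc17a7, which DRG neurons also express) and 2 fell (Slc32a1 and Grin1), against 8.62% and 6.01% of all genes tested. The log2 fold change was positive for 1 of the 11, 6 were lower at an unadjusted p under 0.05, and DESeq2 called 5 lower and limma voom 1. Of 5 endothelial markers, 2 rose (Kdr and Tek), and of 5 microglial markers, 1 rose (Tmem119). None of 8 oligodendrocyte, 7 astrocyte and 4 cartilage markers tested was called by edgeR. At an unadjusted p under 0.05, 1 oligodendrocyte, no astrocyte and 3 cartilage markers were higher, and DESeq2 called 2 cartilage markers and limma voom none of the 3 lists. The oligodendrocyte list was high in control mouse 3 (677 CPM) as well as in mutant mice 1 and 2 (693 and 877). The part of the Schwann cell, DRG, fibroblast, muscle and endothelial markers in the increases of Adgrg6 and Lgi4 was not tested.

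Along the pathway of Adgrg6, the reported ligands are chains of laminin-211, type IV collagens and the prion protein. Of these 10 genes, 1 rose, none fell and 9 were not called, and 9 of 10 had a positive log2 fold change. Of all 17099 genes tested, 8.62% were called higher and 6.01% lower, and 8783 genes had a positive log2 fold change. The 1 call among 10 is close to the share called higher. At an unadjusted p under 0.05, 6 were higher and 1 was lower, against 18.0% and 15.5% of all genes tested. DESeq2 called 1 higher and 1 lower, and limma voom called 1 higher and none lower. The one that rose was Lamb1, at 75.7, 38.5 and 24.4 CPM in the controls and 80.4, 256 and 138 in the mutants (log2 fold change 1.77, standard error 0.48, adjusted p = 0.0416). Col4a1, the most abundant, was at 343, 217 and 105 CPM in the controls and 352, 423 and 563 in the mutants, without a call (log2 fold change 1.01, adjusted p = 0.0924), and Col4a2 had a log2 fold change of 0.68. The median of the list was 0.78. Laminin and collagen genes are also expressed by fibroblasts and vessels, whose markers are given with the other cell types.

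Single genes of the cAMP arm, which lies downstream of the receptor, were called in both directions. Central neuron markers were high in all 6 libraries, and which cells the RNA of these genes came from was not tested. Of 23 genes for Gs, adenylyl cyclases, protein kinase A, Epac, Creb and type 4 phosphodiesterases, 4 rose, 3 fell and 16 were not called, with a median log2 fold change of -0.10. Among all genes tested, 8.62% were called higher and 6.01% lower. Rapgef3, which encodes the cAMP sensor Epac1, was at 10.5, 10.2 and 10.9 CPM in the controls and 24.2, 21.3 and 17.6 CPM in the mutants (log2 fold change 1.00, standard error 0.15, adjusted p = 0.00992). The adenylyl cyclase genes Adcy4, Adcy6 and Adcy3 rose, with log2 fold changes of 1.59, 0.48 and 0.36. Prkacb, a catalytic subunit of protein kinase A, was at 581, 623 and 579 CPM in the controls and 435, 423 and 469 CPM in the mutants (log2 fold change -0.43, standard error 0.08, adjusted p = 0.0188). Prkar1b and Adcy2 also fell. The 3 genes that fell were at over 120 CPM in each control library, while the 4 that rose were at under 45 CPM in each.

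Of 9 targets of the pathway in myelination, 4 rose, none fell and 5 were not called, with a median log2 fold change of 2.44. The shares over all genes tested were 8.62% called higher and 6.01% called lower. None was lower at an unadjusted p under 0.05 or with DESeq2 or limma voom, which called 2 and none higher. Of the 9 targets, 6 are also among the 10 defining Schwann cell markers, and these 6 include all 4 that rose. The study named Egr2 from these libraries, so the list is not independent evidence of its direction. Among the 4 were Prx, Pmp22 and Egr2, with log2 fold changes of 4.27, 4.06 and 3.18. Egr2, the regulator that drives the myelin genes, was at 1.20, 0.975 and 0.400 CPM in the controls and 2.02, 18.9 and 2.70 CPM in the mutants, from 7 to 347 counts. Pou3f1, which acts before it, was at 14.8, 11.8 and 13.8 CPM in the controls and 11.2, 36.6 and 19.3 CPM in the mutants, with overlapping genotypes and no call (log2 fold change 0.73, adjusted p = 0.195). Mutant mouse 2 was the highest for Prx, Pmp22, Egr2 and Pou3f1. With mutant mouse 2 left out, 3 of the 9 were called higher. Mbp and Mag, which oligodendrocytes also express, were not called (adjusted p = 0.437 and 0.537) and were at 1013 and 99.0 CPM in control mouse 3, against at most 175 and 11.6 in the other controls.

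The partners of the Lgi-Adam complexes were a list of 16 genes for scaffolds, Kv1 potassium channels, juxtaparanodal adhesion proteins and others. None rose, 2 fell and 14 were not called, with a median log2 fold change of 0.08. Over the whole table, 8.62% of genes tested were called higher and 6.01% lower. At an unadjusted p under 0.05, 4 were higher, and DESeq2 and limma voom also called none higher. Cntnap2 (Caspr2), which gathers Kv1 channels beside the paranode, was at 205, 219 and 236 CPM in the controls and 156, 153 and 185 CPM in the mutants (log2 fold change -0.42, standard error 0.10, adjusted p = 0.0282). Cacng2 (stargazin), which anchors AMPA receptors at the synapse where Lgi1 acts, had a log2 fold change of -0.33 (adjusted p = 0.0288), and its mutant values also lay below all control values. Dlg4 (PSD-95), the most abundant partner, had a log2 fold change of -0.21 (adjusted p = 0.0903). The Kv1 subunit genes Kcna1, Kcna2 and Kcna4 had log2 fold changes of 0.47, 0.42 and -0.01 without a call. Those of the Kv1 beta subunit genes Kcnab1 and Kcnab2 were 0.09 and 0.41, also without a call.

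Within their own families, Adgrg6 and the 3 receptors were compared with the other genes tested. Their counts stand beside 8.62% of all genes tested called higher and 6.01% called lower. Of 29 further adhesion G protein-coupled receptors, 22 passed the filter, 3 rose and none fell, with a median log2 fold change of 0.17. At an unadjusted p under 0.05, 1 of them was lower, and DESeq2 and limma voom called none lower. Those that rose were Adgrd1 (1.47), Adgre5 (1.28) and Adgra2 (0.95), all below the log2 fold change of Adgrg6, though the differences were not tested. Of 9 further Adam genes, 8 passed the filter, 2 rose and none fell, and none was lower at an unadjusted p under 0.05 or with DESeq2 or limma voom. These were the sheddases Adam17, at 0.63 on the log2 scale (standard error 0.11, adjusted p = 0.0153), and Adam10, at 0.34 (standard error 0.08, adjusted p = 0.0281). Adam17, unlike Adam22, is an active protease and is known as a brake on Schwann cell myelination through its action on neuregulin. It was at 26.5, 22.1 and 27.2 CPM in the controls and at 39.6, 41.6 and 35.8 CPM in the mutants, without overlap. Without control mouse 2, when 56 genes of the whole table were called higher, no gene of the ligand, cAMP, target, partner or family lists was called higher. Without mutant mouse 2, no ligand, 2 cAMP genes, no partner, 1 adhesion receptor and 1 other Adam gene were. Adam9 was at 69.2, 66.8 and 67.8 CPM in the controls and 82.8, 93.5 and 59.2 CPM in the mutants and was not called.

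**Figure D5:**
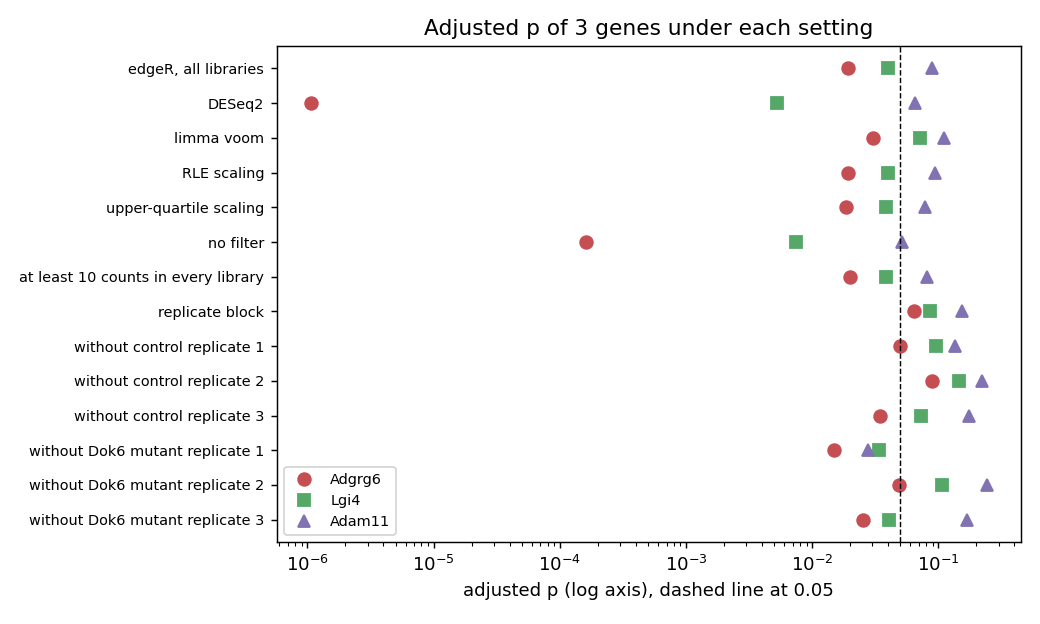
Adjusted p of Adgrg6, Lgi4 and Adam11 (log axis, dashed line at 0.05) in the edgeR test with all libraries and under each alternative test, scaling, filter, replicate block and left-out library. Adgrg6 lies over the line with the replicate block and without control mouse 2, Lgi4 in 6 settings, and Adam11 lies under it only without mutant mouse 1.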

How the data were processed

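The authors deposited raw counts, the whole number of reads counted per gene in each of 6 libraries, with a gene length. The submitters' processing notes name mm10. The aligner, the counter and the use of strand are not given in the sources used here, and the kit is named as NEBNext Ultra RNA in the labels and as its Directional version in the methods. Columns were matched to mice by genotype and number. Counts of genes that passed filterByExpr (17099 of 54532) were scaled by TMM and tested with edgeR 4.0.16 in R 4.3.3 (glmQLFit and glmQLFTest, genotype only, all 6 libraries), with Benjamini-Hochberg adjustment over all genes tested and calls at an adjusted p under 0.05. Standard errors were derived from the F statistic. The typical biological coefficient of variation was 16.6%. CPM used the library sizes of the fit. Every pair of libraries differed by more than counting error (chi-square per degree of freedom at least 8.86).

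The 8 members and the gene lists were chosen with earlier results of these data known, so counts over lists are descriptions. Genes named are Dok6, the members, up to 5 called genes per list with the largest change (the most abundant up to 3 where fewer passed), and the 3 genes most correlated with each member. Other list genes in the text (Mbp, Mag, Pou3f1, the Kv1 subunit genes and the marker genes that exemplify a list) were chosen after their values were seen. Alternatives were DESeq2 1.42.0 (the tool of the study's methods), limma voom 3.58.1, scaling by RLE or by the upper quartile, testing without a filter or with a minimum of 10 counts per library, fold change thresholds, the replicate block and leaving out each mouse. Gene models were GENCODE M21 on GRCm38 (54409 identifiers matched, 123 not), compared with BLAST 2.17.0 and MAFFT 7.526. Some genes of the lists and 1 sequence are not reported here.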

Additional observations from a re-analysis of the deposited data

How the results depend on the processing

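The number of members called higher was 2 with all libraries, DESeq2, RLE or upper-quartile scaling, no filter or at least 10 counts in every library, 1 with limma voom, 0 with the replicate block, 0 with a log2 fold change above 2, and between 0 and 3 with each mouse left out, while 0 members were called lower in every setting. Without control mouse 2 no member was called, and without mutant mouse 1 Adam11 was added. Adgrg6 kept its direction in all 13 alternatives to the test of all libraries, with log2 fold changes from 1.38 to 2.02, and Lgi4 in the same 13, from 0.88 to 1.64. The adjusted p of Adgrg6 ranged from 1.06e-06 (DESeq2) to 0.0883 and that of Lgi4 from 0.00524 (DESeq2) to 0.146. Lgi4 was not called by limma voom (adjusted p = 0.0719). With each mouse left out, the log2 fold change of Lgi3 ranged from -0.16 to 0.038 and that of Adam23 from -0.13 to 0.044, with the sign turned for Lgi3 without control mouse 3 (0.038) or mutant mouse 3 (0.014) and for Adam23 without control mouse 3 (0.032) or mutant mouse 1 (0.044), none of them called. Over all genes, 1474 higher and 1028 lower calls became 432 and 130 with the replicate block, 612 and 74 with a log2 fold change above 1 and 185 and 19 above 2. With each mouse left out they ranged from 56 to 1671 higher and from 12 to 1233 lower, with the lowest counts without control mouse 2. The cause of these changes was not tested. The mice carry the numbers 1 to 3 in each genotype. Deviations of same-numbered mice had correlations from -0.24 to -0.01, and those of differently numbered mice from -0.07 to 0.22. With 3 mice per genotype, these values cannot decide whether the numbers mark a pairing, such as a shared litter. With the block, the log2 fold changes of Adgrg6 and Lgi4 were 1.70 and 1.27 (adjusted p = 0.0637 and 0.0861). At 32 to 41 control counts, depth limits Lgi4 more than the other members.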
